A study of Homo sapiens with 2 samples.

Results

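The circular RNAs (circRNAs) described here came from 7 host genes of TGF-beta, BMP and Hippo signalling: TGFBR2, BMPR2, SMURF1, STK4, YAP1, TEAD1 and FAT1. They were taken from the deposited table by host name alone, and 8 of its 1485 circRNAs had exactly 1 of these names in the host field. STK4 gave 2 circRNAs and each of the other hosts gave 1. The cells were SW620, an established line of human colorectal cancer, sampled as 1 library of cells given the herb pair Hedyotis diffusa-Sculellaria barbata (HD-SB, spelled as in the labels) at 1 mg/mL for 24 h and 1 library labelled control, for which no vehicle is given. Both RNA samples had been depleted of ribosomal RNA and treated with RNase R, an enzyme that degrades linear RNA and spares circles. With 1 library on each side, the intervals given below cover counting error alone and no test was made. Whatever separates the libraries cannot be assigned to HD-SB.

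A circRNA forms when the end of an exon is spliced back to the start of the same or an earlier exon, and it is counted by reads that cross this back-splice junction. Ligands of the TGF-beta and BMP families bind paired type I and type II serine/threonine kinase receptors, which phosphorylate SMAD transcription factors, and SMURF ubiquitin ligases remove SMADs and receptors. In the Hippo pathway a kinase cascade that starts with STK4 (MST1) and its relative STK3 keeps the coactivator YAP1 out of the nucleus, where it would bind TEAD factors and drive growth genes. TGF-beta signalling restrains growth of the normal intestinal epithelium and is often lost in colorectal cancer, while YAP1 is associated with intestinal regeneration and tumour growth. A circRNA reports on neither the linear mRNA nor the protein of its host.

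Read numbers were recovered from the deposited values, in which 1 read was worth 86.4 CPM (counts per 1000000 listed back-splice reads) in HD-SB and 10989 CPM in the control. The HD-SB library held 11570 reads on 1475 circRNAs and the control 91 reads on 32, and the smallest number listed was 2 reads in both. Of 14 epithelial marker genes, 3 (EPCAM, EPHB2 and VIL1) hosted 5 circRNAs with 54 HD-SB reads, while none of the 9 fibroblast and smooth muscle, 9 leukocyte and 5 endothelial markers hosted one. Most epithelial markers, the keratins and CDX2 among them, were thus not listed as hosts either, so host names are a weak check of the cell label.

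The deposited positions did not fall on GRCh38 exon boundaries for any of the 8 circRNAs, although GRCh38 is the build the submitters' processing notes name. They are printed as deposited, with the build not established. The exons were found by length instead, without converting a position. For each circRNA, the pairs of exon boundaries of 1 GENCODE 29 transcript of the host that lie exactly its span apart were searched. All 8 had exactly 1 such pair. Of the 1312 circRNAs of the table with a single host name in GENCODE 29, 1230 (93.75%) had exactly 1 pair, whereas a span 1 base longer found a pair for only 40 (3.05%) and a span 1 base shorter for 26 (1.98%). The exon numbers below are therefore matches of length, and lengths after splicing assume that every annotated exon between the ends was kept, which junction reads do not show.

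The junctions of the 6 circRNAs that lie wholly in coding sequence are shown because they are the sequences that the counted reads had to cross. Each is given 5′ to 3′ on the strand of the host from the GENCODE 29 transcript sequences (GRCh38), with the last 25 bases of the last exon in lower case and the first 25 bases of the first exon in capitals, so that the change of case marks the back-splice point.
TGFBR2, exons 2 to 3: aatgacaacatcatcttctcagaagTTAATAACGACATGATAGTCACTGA
BMPR2, exons 2 to 3: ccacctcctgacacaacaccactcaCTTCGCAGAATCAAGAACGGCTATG
SMURF1, exons 10 to 11: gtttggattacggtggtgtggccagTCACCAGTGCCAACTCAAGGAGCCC
STK4, exons 4 to 5: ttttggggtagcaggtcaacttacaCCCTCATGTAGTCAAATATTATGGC
STK4, exons 8 to 9: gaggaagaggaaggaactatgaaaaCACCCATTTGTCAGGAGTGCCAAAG
YAP1, exons 4 to 6: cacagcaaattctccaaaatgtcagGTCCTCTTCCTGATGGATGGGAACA
The circRNAs of TEAD1 and FAT1 each begin in an annotated 5′ untranslated region, and their junctions are not printed.

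**Figure D1:**
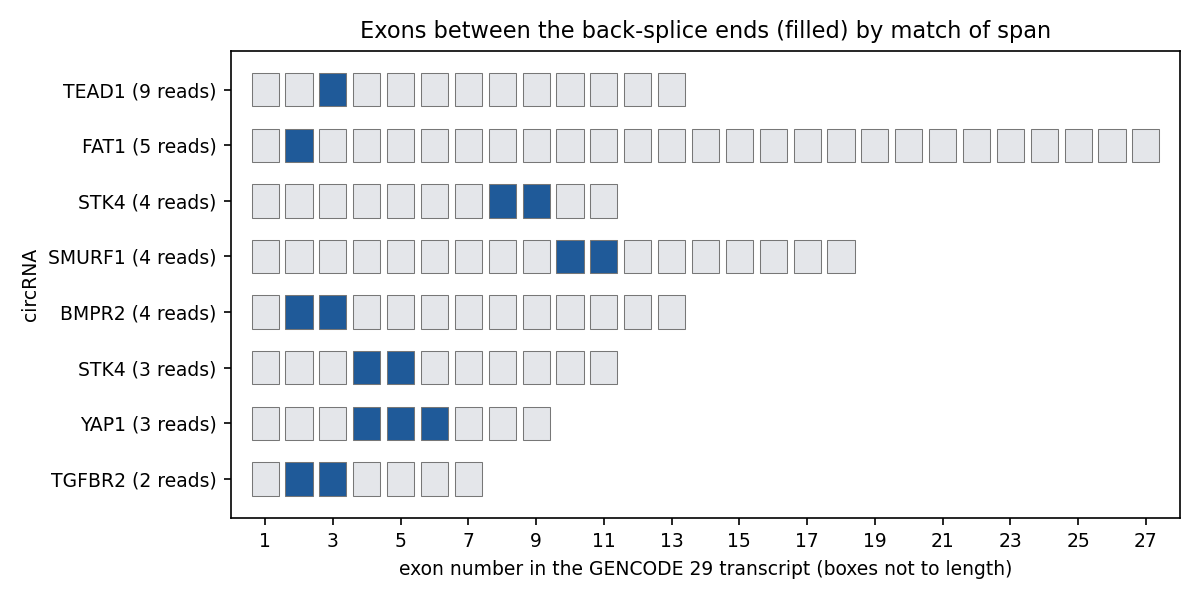
Exons between the back-splice ends of each circRNA (filled boxes) along the GENCODE 29 transcript of its host (x axis, exon number, boxes not drawn to length), 1 row per circRNA with its HD-SB reads. Each of the 8 circRNAs took 1 to 3 neighbouring exons, and the STK4 pair shared none.

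Both receptor genes gave a circRNA of 2 early exons that code for the extracellular, ligand-binding side of the protein. TGFBR2, the type II receptor for TGF-beta, gave hsa_circ_0005224 (chromosome 3, 30686239 to 30691952, span 5714 bp), matched to exons 2 to 3 of the 7 exons of transcript TGFBR2-201. These exons of 169 and 191 bases add up to 360 bases and cover codons 32 to 152 of 567. It had 2 reads in HD-SB, or 173 CPM (95% Clopper-Pearson interval 20.9 to 624), the listing minimum, and was not listed in the control. BMPR2, the type II receptor for BMPs, gave hsa_circ_0003218 (chromosome 2, 203329532 to 203332412, span 2881 bp), matched to exons 2 to 3 of 13. Its exons are 171 bases each, 342 together, and cover codons 26 to 140 of 1038. BMPR2 had 4 HD-SB reads, 346 CPM (94.2 to 885), and no listed control read. The intervals of the receptors overlapped, so no order between them was detectable.

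SMURF1, a ubiquitin ligase that targets SMADs and receptors of this pathway, gave a circRNA with no circBase identifier (circBase is a catalogue of circRNAs) on chromosome 7 from 98643321 to 98645505, a span of 2185 bp. It was matched to exons 10 to 11 of 18, of 199 and 104 bases, which cover codons 318 to 419 of 731. With 4 HD-SB reads it had the same level as the BMPR2 circRNA, 346 CPM (94.2 to 885), and it too was not listed in the control. In the transcript used, its flanking introns, 1680 bp upstream and 3465 bp downstream, were the shortest on either side among the 8 circRNAs. The 3 circRNAs of TGF-beta and BMP hosts together held 10 HD-SB reads, 0.0864% of the library (0.0415 to 0.159).

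STK4, the kinase at the head of the Hippo cascade, was the only one of the 7 hosts with more than 1 circRNA. Of the 1197 host names in the table, 20.7% had 2 or more, counting also names that share a host field with others. STK4 gave 2, each with STK4 as the only host name. The first, hsa_circ_0060527 (chromosome 20, 43610470 to 43615937, span 5468 bp), was matched to exons 4 to 5 of 11, of 115 and 165 bases, which cover codons 82 to 175 of 487, a stretch of the kinase domain. It had 3 HD-SB reads, 259 CPM (53.5 to 758). The second, hsa_circ_0005573 (chromosome 20, 43629033 to 43629994, span 962 bp), was matched to exons 8 to 9, of 129 and 187 bases, covering codons 278 to 383. It had 4 HD-SB reads, 346 CPM (94.2 to 885). These STK4 circRNAs did not overlap in the deposited positions, shared no exon, and differed by 1 read, which is less than counting error. Neither was listed in the control, and together they held 7 HD-SB reads, 605 CPM (243 to 1246). The exons of the first hold 35.4% G and C and those of the second 49.1%. Among the 1230 circRNAs matched to exons, 8 had a lower GC content than the first STK4 circRNA.

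YAP1, the coactivator held in check by the cascade, gave hsa_circ_0004140 (chromosome 11, 102056749 to 102080295), whose span of 23547 bp was the longest of the 8. It was matched to exons 4 to 6 of the 9 exons of transcript YAP1-201, of 114, 182 and 48 bases, or 344 bases in all. In another transcript with the same ends the exons add up to 356 bases, and junction reads do not tell these apart. They cover codons 230 to 344 of 504, and the circle starts at the exon that encodes the second WW domain, through which YAP1 binds proline-rich partners. With 3 HD-SB reads its level was 259 CPM (53.5 to 758), and it was not listed in the control.

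TEAD1, a DNA-binding partner of YAP1, gave the circRNA with the most reads of the 8 and also the shortest, on chromosome 11 from 12785726 to 12785981 and with no circBase identifier. Its 256 bases equal a single exon, the third of 13 in transcript TEAD1-206, with 54 bases of 5′ untranslated region, the annotated start codon and codons 1 to 68 of 426, which reach into the TEA DNA-binding domain. It had 9 HD-SB reads, 778 CPM (356 to 1476), and was not listed in the control. The introns on either side in this transcript, 1 of 3 that matched, are 88617 and 97815 bp long. Longer introns were found upstream of only 23 of 1227 matched circRNAs and downstream of 14 of 1226.

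FAT1, a giant protocadherin that acts upstream of the Hippo kinases, gave hsa_circ_0001461 (chromosome 4, 187627717 to 187630999, span 3283 bp), which also equals a single exon, the second of 27. That exon holds 18 bases of 5′ untranslated region, the annotated start codon and codons 1 to 1089 of 4588, a stretch of extracellular cadherin repeats. Among the 1230 matched circRNAs 1 had a longer summed exon sequence, and none of the 78 single-exon circles was longer. Its 5 HD-SB reads gave 432 CPM (140 to 1008), and no control read was listed. The 5 circRNAs of Hippo hosts held 24 HD-SB reads, 0.207% of the library (0.133 to 0.308). That was 70.6% of the 34 reads on all 8 circRNAs, which made up 0.294% of the library (0.204 to 0.410).

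**Figure D2:**
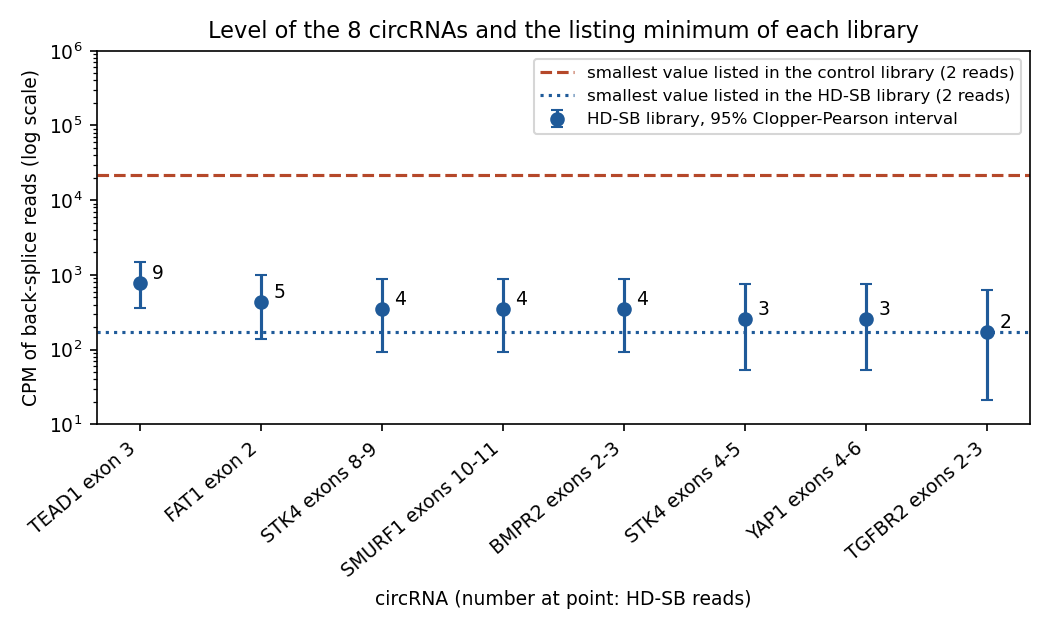
Level of each circRNA in the HD-SB library (points, CPM of back-splice reads on a log axis, with 95% Clopper-Pearson intervals and the read number beside each point). The 8 points lie between 173 and 778 CPM with intervals that overlap, all below the dashed line of the smallest value listed in the control (2 reads), so the control points cannot be drawn.

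Within the HD-SB library, the order by reads was TEAD1 (9), FAT1 (5), BMPR2, SMURF1 and the second STK4 circRNA (4 each), YAP1 and the first STK4 circRNA (3 each) and TGFBR2 (2). A junction is a single point of any circle, so these reads need no division by length. The intervals of all neighbours in this order overlapped, and those of the highest and the lowest, 356 to 1476 CPM and 20.9 to 624 CPM, did as well. The median of the 8 was 4 reads, against 5 over the 1475 circRNAs listed in HD-SB, whose quartiles were 3 and 8. TEAD1 tied with 57 other circRNAs, and 251 circRNAs of the table had more reads. Of the 1475, 14.5% were at the 2 reads of TGFBR2, and 46.8% had 4 reads or fewer, as did 6 of the 8.

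**Figure D3:**
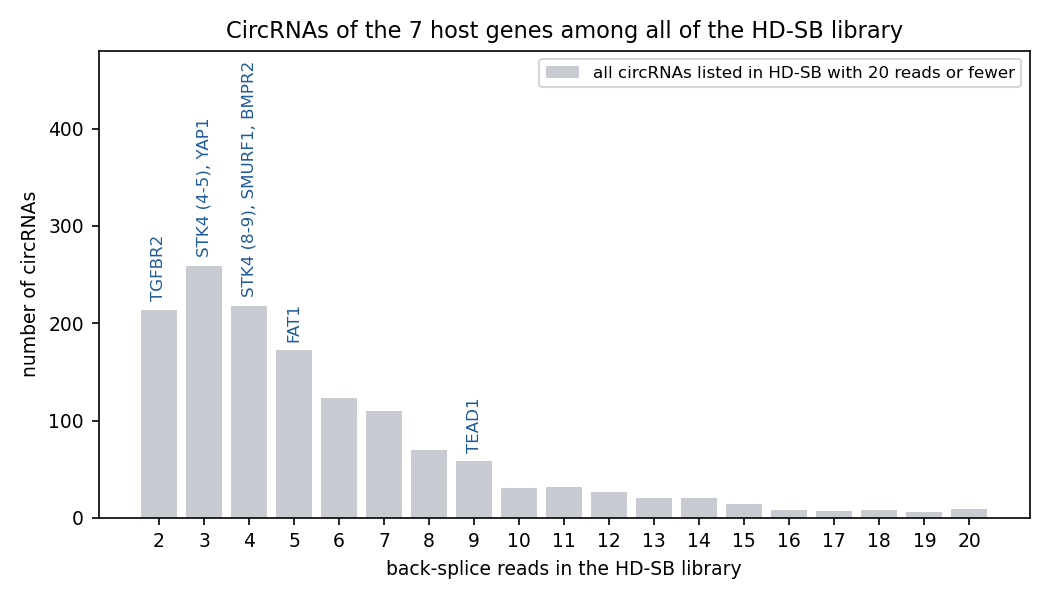
Number of circRNAs (y axis) at each number of back-splice reads in the HD-SB library (x axis, up to 20 reads), with the 8 circRNAs named above their bars. They sit at 2 to 9 reads, where 83.0% of the library's circRNAs lie.

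Whether the circRNAs of these hosts differ between HD-SB and control cells was not detectable at this depth. All 8 were listed in HD-SB and not in the control, which was true of 97.8% of the 1485 circRNAs in the table. In the control an unlisted circRNA was taken as 0 or 1 read beside the 91 listed reads, since the smallest number listed was 2. The limits and read numbers that follow take these 91 as the total, since unlisted reads are not known. For 1 circRNA, a count of 0 allows a share of up to 3.30% by the floor of 3 reads and 3.97% by the Clopper-Pearson interval, above the share of any of the 8 in HD-SB. Since each may hold 1 unlisted read, the control count of the 8 together is not known. At their HD-SB share of 0.294%, 0.267 control reads would fall on all 8 together, and 0.0708 on TEAD1. An interval above an equal share would have needed 471 HD-SB reads against 0 control reads and 711 against 1, and 0.00% of the circRNAs in the table reached the first of these. For each of the 8, the range of ratios that covers both 0 and 1 control read included an equal share. For TGFBR2 alone, exactly 1 control read would put its HD-SB share below that of the control, with an upper limit of 0.928 on the ratio.

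A size rule was also applied to the ratio log2((HD-SB + 172.861)/(control + 172.861)) in CPM, over circRNAs whose average of HD-SB and control reached 216 CPM, the table's median. Only TEAD1 (log2 ratio 2.46) and FAT1 (1.81) passed that filter, and both exceeded the 2-fold mark upwards, as did 96.0% of the 797 circRNAs that passed. Neither TEAD1 nor FAT1 was at least 2-fold lower, against 4.02% of the 797. The ratio of a circRNA listed only in HD-SB follows from its HD-SB reads and the pseudocount. Such a circRNA also passes the filter through its HD-SB reads alone. With this pseudocount its call as higher, and not lower, was fixed in advance. All 765 circRNAs called higher were of this kind. When 0.5 read of each library was added instead, a choice made with the values known, TEAD1 and FAT1 both turned to at least 2-fold lower, as did 96.9% of the 797 circRNAs, so these ratios carry no direction.

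In structure the 8 circRNAs were compared with the 1230 circRNAs of the table matched to exons, as a description. They held 1 to 3 exons with a median of 2, against a median of 3. A single exon made up 2 of the 8 (TEAD1 and FAT1), against 6.34% of the matched circRNAs, and 2 exons made up 5 of the 8, against 33.0%. The exons of a circle added up to a median of 329 bases, against 370.5, and without FAT1 these sums ranged from 256 to 360 bases. The median span was 3082 bp, against 4111 bp over all 1485. Flanking introns had medians of 18632 bp upstream and 22398 bp downstream, against 7396 and 6689 bp, and ranged from the 1680 bp upstream of SMURF1 to the 97815 bp downstream of TEAD1. BMPR2 also lay between long introns, of 87258 and 46029 bp, and YAP1 between 23446 and 14057 bp. Intron lengths were read from 1 preferred transcript per circRNA and may differ in other transcripts with the same ends.

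**Figure D4:**
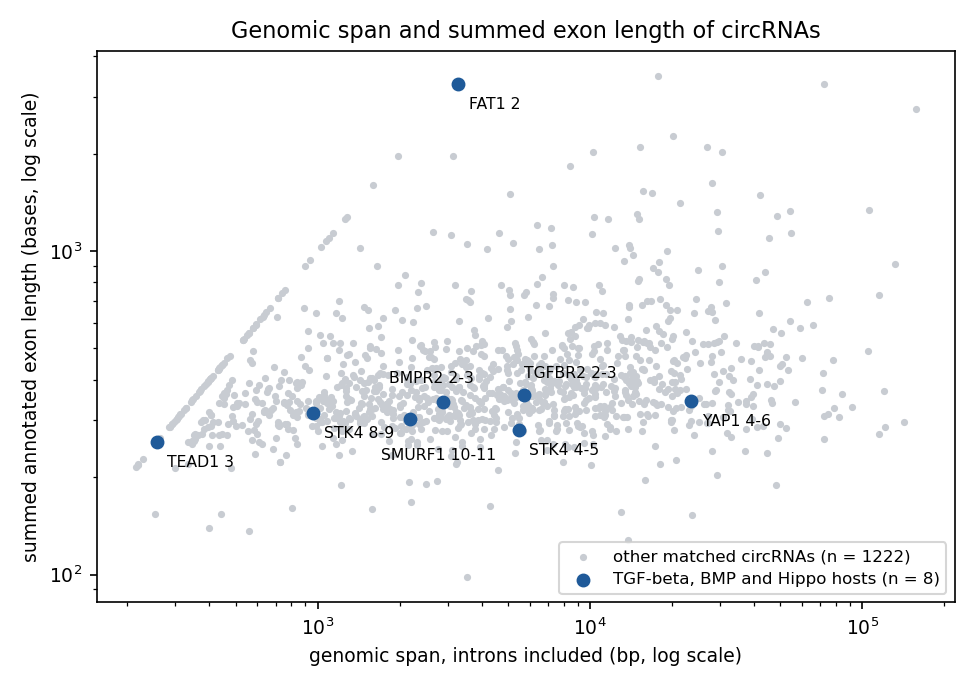
Genomic span (x axis, bp) against the summed length of annotated exons between the ends (y axis, bases) on log axes for 1222 other matched circRNAs (grey) and the 8 of TGF-beta, BMP and Hippo hosts (blue, labelled with exon numbers). Apart from FAT1 at 3283 bases, these sums stay between 256 and 360 bases while spans run from 256 to 23547 bp.

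Wholly coding exons made up 6 of the 8 circles and 80.4% of the matched circRNAs. The annotated start codon lay in those of TEAD1 and FAT1, 2 of 8, against 15.8%. Of the 6 wholly coding circles, those of TGFBR2, BMPR2 and SMURF1 had a length that is a multiple of 3, so that a reading frame would continue unshifted across the junction. The 2 of STK4 and that of YAP1 did not. Over the table, 38.9% of 989 wholly coding circles had such a length. The catalogue identifiers covered 6 of the 8, all but TEAD1 and SMURF1, against 75.6% of the table. No other circRNA of the table overlapped any of the 8.

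The series' title names hsa-miR-204-5p, so its seed match was searched in the exon sequences of the circles, the junction included. The mature sequence from RefSeq (GRCh38.p14) is shown with its seed, bases 2 to 8, in capitals.
hsa-miR-204-5p: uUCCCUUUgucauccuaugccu
The complement of the seed, AAAGGGA, was searched on the strand of the host only, since the microRNA pairs with the transcript, and no other motif was searched. It was found in 0 of the 8 circles. Of the 502 matched circles of 256 to 360 bases, the range of all but FAT1, 3.39% held it, and of all 1230 matched circles 4.47% did. The result says only that these 7 letters are not in the assumed exon sequences.

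The wider pathway was read from a list of 126 genes that holds the 7 hosts. Besides these, 6 of its genes hosted 7 circRNAs with 52 HD-SB reads. None had a listed control read, as for 97.8% of the table's circRNAs. All 6 belong to the Hippo side, as 1 of its 8 other effectors and 5 of its 29 other upstream inputs. VGLL4, which competes with YAP1 for TEAD factors, had 11 reads on a circRNA (chromosome 3, 11641366 to 11643496) whose host field also names small RNAs. Among upstream inputs, the scaffold DLG5 had 10 reads on hsa_circ_0006649 and 5 on a second circRNA, DLG1 had 9 on hsa_circ_0008500, the phosphatase PTPN14, a binding partner of YAP1, had 7 on hsa_circ_0007615, and SLMAP, which recruits a phosphatase complex to STK4 and STK3, had 7 on hsa_circ_0002693. SCRIB, a polarity scaffold, had 3. No circRNA was listed for any of the 12 ligands, the 8 SMADs, the 12 other receptors or the 28 other TGF-beta and BMP regulators. The same held for the 14 other genes of the Hippo kinase module, LATS1 and LATS2 among them. It also held for the 8 target genes of YAP/TEAD or SMAD factors. A gene without a listed circRNA may still have had 1 unlisted read on each of 1 or more circRNAs, so these are absences from the list. The share of all genes that host a listed circRNA was not computed. Without that base rate, a difference between the Hippo and TGF-beta sides was not tested.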

How the data were processed

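The authors deposited 1 table with a column per library. The header of each column, per the file headers, says TPM. However, each deposited column adds up to 1000000 and 100% of listed values are whole multiples (within 0.01) of 1 read, whatever the span, so they are CPM of listed back-splice reads. The value 0.001 marks a circRNA not listed, taken here as 0 or 1 read because the smallest number listed was 2. Whether another listing rule was also applied is not known. FastQC, HISAT2 2.1.0 and GRCh38 are named, per the submitters' processing notes, with no step assigned, and the program that called circRNAs is not given in the sources used here.

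Reads were recovered by division, shares were given Clopper-Pearson 95% intervals (scipy 1.17.1), which leave out amplification, as copies of 1 molecule may be counted more than once, and the pseudocount of 172.861 CPM was the 5th percentile of listed values. Exons were matched by span to GENCODE 29, with CCDS transcripts preferred, after the values had been seen. The interval was tried on simulated libraries of equal depth without a listing minimum, which differs from these data. The match was tried on spans drawn from annotated exons. Both runs check the code only, not the intervals or exons given here. Every circRNA of the 7 hosts is named, and of the wider list every host with a circRNA. Hosts and lists were chosen with earlier results of these data known. The alternatives were other pseudocounts, filters, thresholds, scaling and host matching.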

Additional observations from a re-analysis of the deposited data

How the results depend on the processing

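Of the 8 circRNAs, 2 (TEAD1 and FAT1) passed the filter and were called at least 2-fold higher, as were 96.0% of all 797 that passed. In brackets is the same percentage over all circRNAs that entered each setting. The 2 became 1 when the pseudocount was 4 times larger (37.1%) and 8 without a filter (97.8%). They became 1 with the stricter filter (92.0%), 1 at 4-fold (74.8%) and 0 with 0.5 read per library (0.502%). That last setting, added after the data were seen, raised the count at least 2-fold lower from 0 (4.02%) to 2 (96.9%). The reason is that 0.5 read adds more CPM to the control than to HD-SB. Filters change how many circRNAs enter, and a larger pseudocount shrinks ratios. The counts were the same with a smaller pseudocount, median-ratio scaling, 1.5-fold and host names alone. The share of 0.294% became 0.182% with circBase identifiers only and 0.121% (2 circRNAs) at 5 or more reads, as fewer circRNAs count; without TEAD1 it was 0.216%, inside the main interval. No paired analysis was possible because there is 1 library a side. Depth in the control was 91 listed reads, and deeper reads would not replace replicate libraries.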
